A study of Bombyx mori with 12 samples.

Results

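The BNGR-A receptors are the silkworm's family A neuropeptide receptors, seven-pass membrane proteins of the rhodopsin type that couple to G proteins. Members were all sequences on the array whose name begins with BNGR-A, with probes of the coding sequence merged with the other probes of the same name. This gave 36 receptors among 32372 sequence names, covered by 144 of the 42564 probes, of which 143 had a value on every array. Each receptor had 4 probes, except that 1 of the 4 of BNGR-A5 was lost to an outlier mark in epidermis.

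Transcripts were measured in larvae of Bombyx mori, a commercial hybrid of the strains Kinsyu and Showa reared on mulberry leaves, on 12 Agilent arrays labelled in 1 colour with Cy3. The groups began with CC-CA, the corpora cardiaca joined to the corpora allata that make juvenile hormone, on day 4 of the 5th instar (1 array) and on day 2 of the 4th instar (2 arrays from independent experiments). The same day 2 of the 4th instar gave brain, salivary gland, Malpighian tubule, epidermis, midgut, fat body and prothoracic gland (1 array each). Gonads, testis and ovary, were taken 3 days into wandering, on 5th instar day 10 (1 array each). Testis and ovary therefore differ from the larval tissues in age as well as in organ.

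Neuropeptides are released by neurons and by neurohaemal organs such as the corpora cardiaca, and a cell responds only where it makes the matching receptor. Allatostatins and allatotropin are named for their action on the corpora allata: allatostatin A lowers juvenile hormone synthesis in cockroaches and allatotropin raises it in moths. Other peptides of this kind act on feeding, gut movement, ion and water balance, heart rate and moulting behaviour. Family B receptors, the other large class of peptide receptors, resemble the secretin receptor.

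Levels below are log2 signals relative to the 75th percentile of the array, so 0 is as bright as that percentile. A probe was counted as detected where the scanner software marked it well above background, on both arrays for the 4th instar CC-CA. A receptor was represented by the probe with the highest mean over the 12 arrays, and levels are not compared between receptors, since probes differ in brightness for reasons other than transcript number. In whole organs, fewer cells of a type and less RNA per cell cannot be told apart.

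The labels of CC-CA, brain and fat body were checked against their defining genes, and the other tissues were not checked. BmJHAMT, which encodes a methyltransferase of juvenile hormone synthesis, was at -1.55 in 5th instar CC-CA and at 2.39 and 2.08 in 4th instar CC-CA, and was not well above background elsewhere. Adipokinetic hormone AKH-1, a corpora cardiaca peptide, was between 5.22 and 6.04 in CC-CA and at most -3.29 elsewhere. Eclosion hormone (EH), made by brain neurons, was at 3.53 in brain and was not well above background on any other array, CC-CA included. AKHR, the adipokinetic hormone receptor of fat body, was at -0.23 in fat body and at most -5.58 elsewhere. Between 60.4% (fat body) and 78.6% (testis) of an array's spots were well above background, and the signal at the 75th percentile lay between 1402 (fat body) and 5827 (ovary). The paired CC-CA arrays correlated at r = 0.980 across probes, which are not independent replicates, and differed by a median of 0.48 on the log2 scale over all probes. Over the 11 receptors detected on both, the median difference was 0.34 and the largest 1.14.

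Of 36 receptors, 30 were detected in at least 1 of the 11 groups. BNGR-A9, BNGR-A15, BNGR-A21, BNGR-A22, BNGR-A28 and BNGR-A31 were detected in none, and for BNGR-A9, BNGR-A15, BNGR-A28 and BNGR-A31 no probe was well above background anywhere. BNGR-A1, BNGR-A5, BNGR-A10, BNGR-A14 and BNGR-A27 were detected in all 11 groups. A further 10 receptors were detected in 1 group only. Of these, BNGR-A7 and BNGR-A30 were detected in brain, and BNGR-A6-B and BNGR-A25 in testis. BNGR-A18 was detected in ovary, BNGR-A33 in Malpighian tubule and BNGR-A34 in midgut. BNGR-A24, BNGR-A26 and BNGR-A35 were detected in 5th instar CC-CA alone. Where at least 3 probes had to be well above background, 20 receptors were detected in some group, none in all 11, and 6 in 1 group only (BNGR-A8 and BNGR-A30 in brain, BNGR-A12 in midgut, BNGR-A20 and BNGR-A33 in Malpighian tubule, BNGR-A24 in 5th instar CC-CA).

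By the representative probe, 14 receptors were detected in 5th instar CC-CA and 11 in 4th instar CC-CA. Brain had 17, midgut 18, testis 15 and ovary 13. Epidermis and Malpighian tubule had 12 each, salivary gland 10, prothoracic gland 9 and fat body 8. Fat body also had the lowest share of all spots well above background and testis the highest, and the part of array sensitivity in these counts was not tested. Requiring 3 probes left 10 receptors in 5th instar CC-CA and 7 in 4th instar CC-CA, against 10 in brain, 9 in midgut and 9 in Malpighian tubule. Testis and ovary had 6 each, epidermis 4 and fat body 3. Prothoracic gland kept BNGR-A10 alone and salivary gland BNGR-A23 alone.

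**Figure D1:**
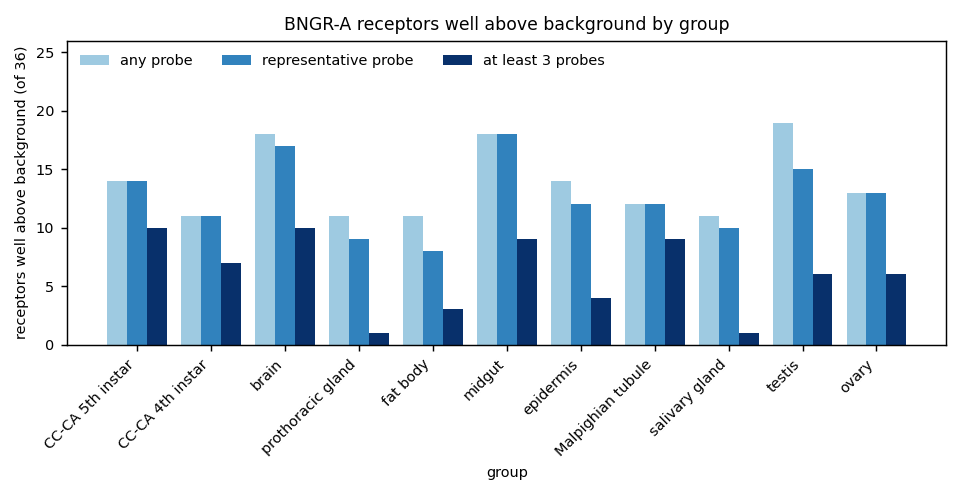
Number of the 36 BNGR-A receptors (vertical axis) well above background in each group (horizontal axis), by any probe, by the representative probe and by at least 3 probes. Brain and midgut have the most receptors by the representative probe, 17 and 18, and prothoracic gland and salivary gland fall to 1 each when 3 probes are required.

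Counting only organs in which the receptor was detected, the highest organ was CC-CA for 7 receptors, brain for 6, midgut for 5, testis for 4, Malpighian tubule and fat body for 3 each, and ovary and salivary gland for 1 each. For 5 of these 30 another organ, although not well above background, could lie as high or higher by its bound: BNGR-A24, BNGR-A26 and BNGR-A35 of CC-CA, BNGR-A30 of brain and BNGR-A6-B of testis. For BNGR-A35 the signal was -6.73 in 5th instar CC-CA, below signals not well above background in brain (-5.75), prothoracic gland (-5.70) and fat body (-4.89). Only 10 of the 30 led the next organ by at least 2-fold, a description with no test. The smallest gap between 2 single arrays that the 95% interval of limma's fit would separate was about 1.38 on the log2 scale (median over receptors), so most neighbours in the order of tissues do not differ beyond the spread. Leads beyond that limit for the receptor concerned were those of BNGR-A2 in CC-CA, BNGR-A8 in brain, BNGR-A19 and BNGR-A32 in midgut, and BNGR-A23 in testis. The limit holds for a pair of arrays fixed beforehand, whereas each organ was picked as the highest of 10. These leads are therefore a description too, and that of BNGR-A32 rests on 1 of its 4 probes.

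**Figure D2:**
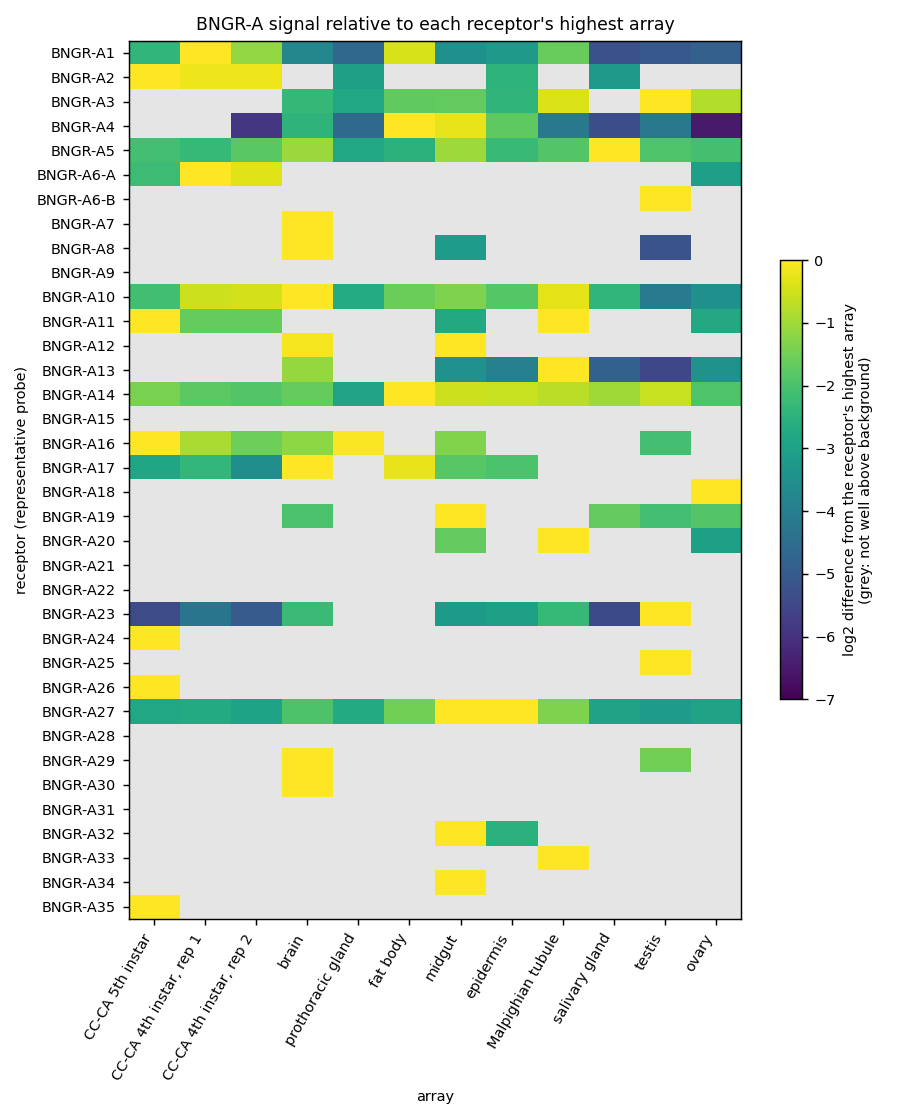
Signal of each BNGR-A receptor (rows, representative probe) on each of the 12 arrays (columns), as the log2 difference from that receptor's highest array, with grey where the probe was not well above background. BNGR-A2 and BNGR-A6-A are brightest on the CC-CA arrays, BNGR-A8 in brain and BNGR-A23 in testis, and 6 receptors are grey throughout.

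The receptors of peptides that act on the juvenile hormone gland come first. BNGR-A1 is the receptor of allatostatin A. It stood at -2.36 in 5th instar CC-CA and at 0.04 and -1.09 in 4th instar CC-CA. Brain was at -3.73, fat body at -0.40, Malpighian tubule at -1.58, epidermis at -3.18 and midgut at -3.44. Prothoracic gland (-4.60), testis (-5.04), ovary (-4.82) and salivary gland (-5.23) were lowest. Fat body and 4th instar CC-CA lay 1.09-fold apart. The 4th instar CC-CA was higher than 7 of the 9 other tissues by limma's adjusted p (between 0.000367 and 0.0136), on all 4 probes, but not higher than fat body (adjusted p = 0.895) or Malpighian tubule (adjusted p = 0.249).

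BNGR-A16 is the receptor of allatotropin. Its level was -4.25 in 5th instar CC-CA and -5.13 and -5.80 in 4th instar CC-CA, with -4.28 in prothoracic gland, -5.45 in brain, -5.56 in midgut and -6.35 in testis. It was not well above background in fat body, epidermis, Malpighian tubule, salivary gland or ovary. On the other 3 probes prothoracic gland was not well above background, and CC-CA led on all 4. The allatotropin precursor itself was not well above background on any array.

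The short neuropeptide F receptors are BNGR-A7, BNGR-A10 and BNGR-A11, and the peptide regulates feeding in Drosophila. BNGR-A7 was detected in brain alone, at -4.42, and on 2 of its 4 probes. BNGR-A10 was at -0.39 in 5th instar CC-CA, at 1.19 and 1.27 in 4th instar CC-CA, at 1.72 in brain and at 1.44 in Malpighian tubule. Its other 3 probes did not put brain near the top: they read between 0.47 and 1.39 in 4th instar CC-CA and between 1.01 and 1.67 in Malpighian tubule, but between -2.13 and -1.56 in brain. In salivary gland and testis those 3 probes were not well above background, while the representative was at -0.67 and -2.40. BNGR-A11 was at -2.72 in 5th instar CC-CA, -4.37 on each 4th instar array, -2.73 in Malpighian tubule, -5.48 in midgut and -5.50 in ovary, and was not well above background in brain. Another probe of BNGR-A11 read -2.69 and -4.91 on the 4th instar CC-CA pair. A further probe was not well above background on that pair and was highest in midgut (-4.65) and epidermis (-4.69). On their representatives the 3 receptors thus had separate patterns, with Malpighian tubule and CC-CA shared by BNGR-A10 and BNGR-A11. In the RefSeq gene order BNGR-A10 and BNGR-A11 are adjacent, and 2 protein-coding genes lie between BNGR-A11 and BNGR-A7.

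BNGR-A4 is the receptor of neuropeptide F, a brain and gut peptide. In CC-CA it was at -7.89 in the 5th instar and at -6.13 and -6.31 in the 4th, and well above background on 1 of these arrays. It was at -2.87 in brain, -0.42 in fat body, -0.68 in midgut and -2.16 in epidermis. Malpighian tubule and testis were at -4.60 and -4.61, prothoracic gland at -5.01, salivary gland at -5.73 and ovary at -6.91. Fat body and midgut led on each of the 4 probes.

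Ion transport peptide acts on salt and water balance in insects, and its silkworm receptors are BNGR-A2 and BNGR-A34, with BNGR-A24 for the ITP-like form and tachykinin-related peptides. BNGR-A2 was at -2.35 in 5th instar CC-CA and at -2.52 on both 4th instar arrays, against -4.82 in epidermis, -5.36 in prothoracic gland and -5.55 in salivary gland. Epidermis, prothoracic gland and salivary gland were well above background for BNGR-A2 on the representative only. In the other 6 tissues BNGR-A2 was not well above background. All 3 CC-CA arrays lay above every other array on each of the 4 probes, and CC-CA led epidermis by 5.52-fold. BNGR-A34 was detected in midgut alone, at -4.34, on 2 of 4 probes. BNGR-A24 was detected in 5th instar CC-CA, at -6.82, and on 3 of its 4 probes there, with 1 of them also well above background in brain. The 2 named receptors of ion transport peptide were therefore detected in different organs.

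The natalisin receptors BNGR-A32 and BNGR-A33 were detected neither in brain nor in CC-CA. Natalisin is a peptide linked to mating behaviour in Drosophila. BNGR-A33 was at -4.21 in Malpighian tubule and was detected there on 3 of 4 probes. BNGR-A32 was at -0.95 in midgut and -3.48 in epidermis, but on 1 of its 4 probes only: the other 3 were not well above background on any array. BNGR-A21, the corazonin receptor, was not detected by its representative, and 1 of its other probes was well above background in fat body, at -4.64. The RefSeq table gives BNGR-A26 and BNGR-A30 the synonyms CCAPR-2 and CCAPR-1, receptors of crustacean cardioactive peptide, which acts on heartbeat and moulting behaviour. BNGR-A30 was detected in brain (-5.28, 3 of 4 probes) and BNGR-A26 in 5th instar CC-CA (-6.68, 2 of 4 probes), although their genes are adjacent. BNGR-A29, with the synonym Acpr-2 of a receptor for the adipokinetic hormone and corazonin-related peptide, was at -4.22 in brain and -5.72 in testis, on 2 of 4 probes.

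Among receptors for which no ligand is named here, several had 1 organ in which they stood apart. BNGR-A6-A was at -6.04 in 5th instar CC-CA and -3.84 and -4.18 in 4th instar CC-CA, and otherwise only in ovary, at -6.88 and on 1 of 4 probes. BNGR-A8 was at -1.74 in brain, against -4.88 in midgut and -6.95 in testis, and was not well above background on the other 9 arrays. Brain led midgut by 8.85-fold, and all 4 probes were highest in brain. BNGR-A23 was at -0.73 in testis, against -7.72 in ovary, where it was not well above background. For BNGR-A23, brain was at -2.97, Malpighian tubule at -3.05, epidermis at -3.75, midgut at -3.90, CC-CA between -6.09 and -5.02, and salivary gland at -6.15. Its lead of testis over brain was 4.72-fold, and all 4 probes read between -0.91 and -0.73 in testis.

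BNGR-A13 was highest in Malpighian tubule, the insect kidney, at -0.98, and next in brain, at -2.10. Its 4 probes all placed these organs first and second, 2.17-fold apart on the representative. On the CC-CA arrays it was not well above background. BNGR-A19 was at -3.07 in midgut and at -4.75 in salivary gland, with brain at -5.05, testis at -5.16 and ovary at -4.95. The 4 probes were alike in midgut (between -3.42 and -3.07), while salivary gland was above background on the representative alone. BNGR-A20 was at -3.96 in Malpighian tubule, at least 2.09-fold over fat body, which set that bound, with midgut at -5.64 and ovary at -6.98. On 1 of its other probes fat body was higher, at -3.32.

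BNGR-A3 was at -2.26 in testis, -2.63 in Malpighian tubule, -3.06 in ovary, -4.61 in brain, -3.94 in midgut, -3.98 in fat body, -4.67 in epidermis and -5.07 in prothoracic gland, and was not well above background on any CC-CA array. On 2 of its 4 probes testis was only at -6.40 and -6.27, and Malpighian tubule was highest (-3.65 and -3.97). Prothoracic gland and fat body were well above background for BNGR-A3 on 1 probe each. BNGR-A12 was detected in brain, at -4.12 and on 1 of 4 probes, and in midgut, at -4.02 and on 3 of 4 probes. BNGR-A17 lay between -6.65 and -5.51 in CC-CA, with -3.13 in brain, -3.35 in fat body, -4.95 in midgut and -5.10 in epidermis. Fat body and epidermis were well above background for BNGR-A17 on the representative only, whereas brain was so on all 4 probes. The genes of BNGR-A3 and BNGR-A20 are adjacent, and BNGR-A8 lies 2 protein-coding genes from BNGR-A3. For the 34 receptors found in the RefSeq table, only receptors that follow each other along a chromosome were paired. Of these pairs, 9 had at most 10 protein-coding genes between them. Over the 12 arrays, which share scaling and slides, these pairs correlated between r = -0.26 (BNGR-A5 and BNGR-A16) and 0.66 (BNGR-A3 and BNGR-A20), with 2 of the 9 below 0, given as a description.

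**Figure D3:**
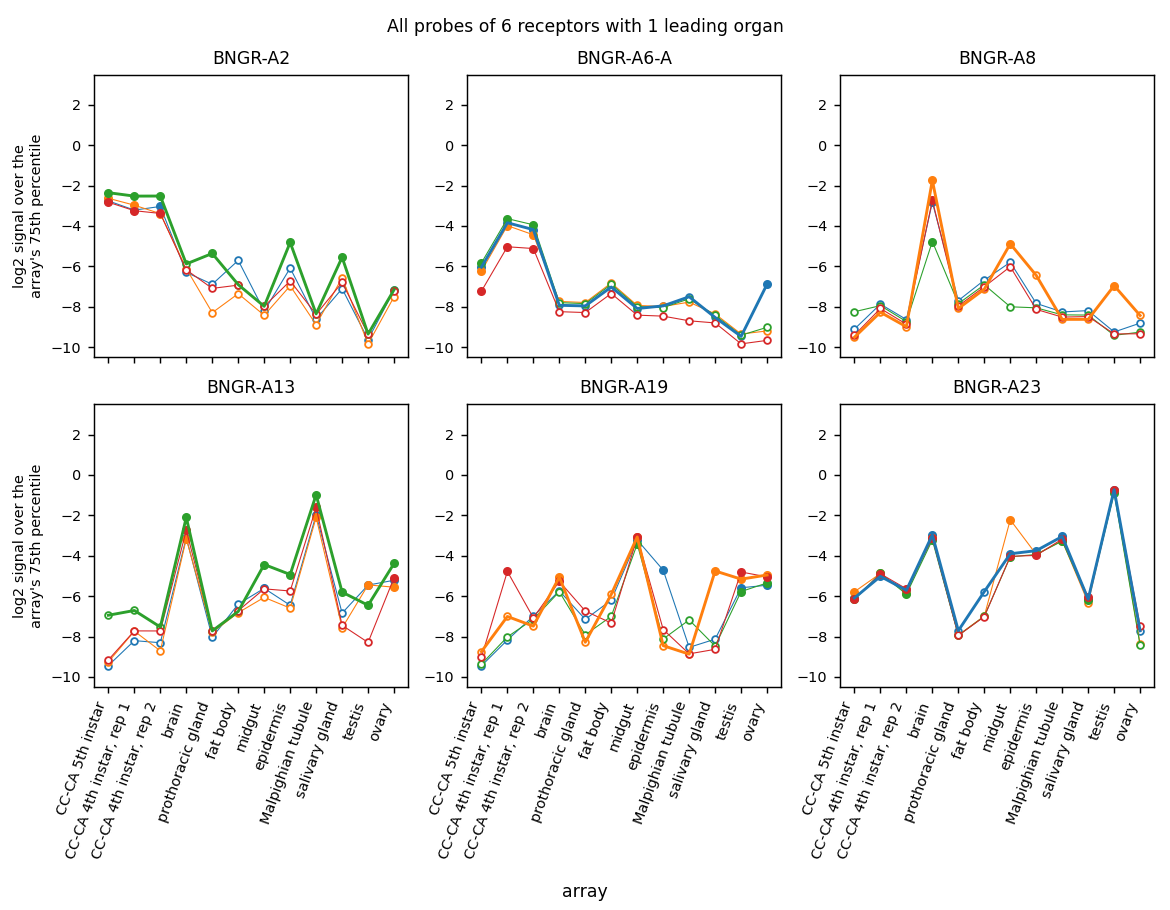
Log2 signal over the array's 75th percentile (vertical axis) of every probe of 6 receptors on the 12 arrays (horizontal axis), filled points where well above background, with the thick line for the representative probe. The 4 probes share their highest organ: CC-CA for BNGR-A2 and BNGR-A6-A, brain for BNGR-A8, where they read between -4.77 and -1.74, Malpighian tubule for BNGR-A13, midgut for BNGR-A19 and testis for BNGR-A23.

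For other receptors the probes differed. Over the 12 arrays the representative correlated below 0.6 with the median of the receptor's other probes for 9 receptors, 8 of them detected. BNGR-A27 was between -0.27 and 2.87 on its representative, highest in midgut (2.87) and epidermis (2.86), and its other 3 probes were not well above background on any array. BNGR-A14 was between -1.95 and 0.96, and its other probes were above background on 1 to 5 arrays. BNGR-A25 was at -3.63 in testis on 1 probe and not above background on any other probe or array. BNGR-A5 was at 0.34 in salivary gland, 2.05-fold above midgut at -0.69, and its second probe ran the same way, but the third was detected in testis and ovary alone. The fourth, left out for want of a value in epidermis, was also highest in testis (-3.98) and ovary (-5.48). It was at most -6.79 on the other arrays. BNGR-A18 was detected in ovary, at -4.62, on its representative and in testis on another probe. BNGR-A6-B was at -6.09 in testis on 1 probe and was not above background elsewhere. The levels of these receptors are those of single probes, and which probe reads the receptor was not tested.

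**Figure D4:**
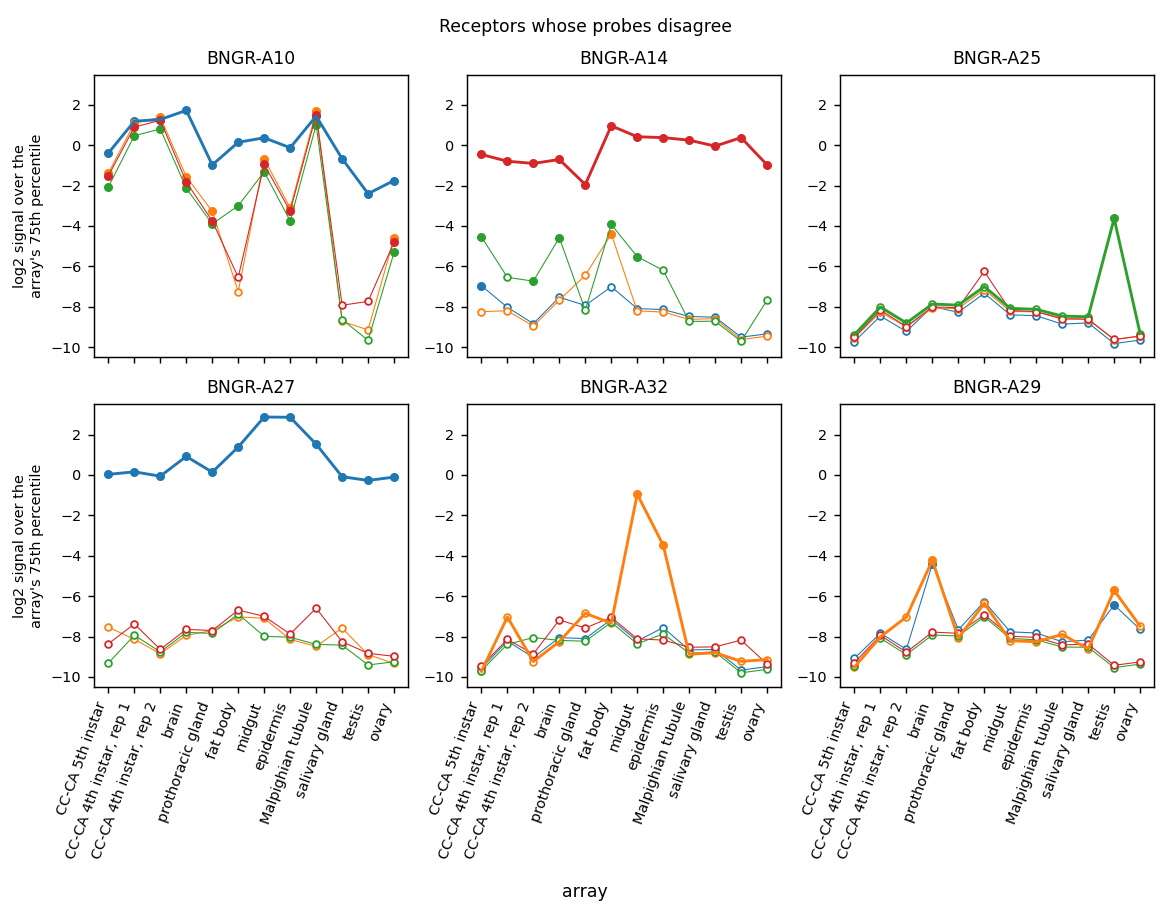
Log2 signal over the array's 75th percentile (vertical axis) of every probe of 6 receptors on the 12 arrays (horizontal axis), filled points where well above background, with the thick line for the representative probe. BNGR-A27 and BNGR-A32 are above background on 1 probe each, and the representative of BNGR-A10 stands clear of the other 3 in every group except 4th instar CC-CA and Malpighian tubule.

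The design asks which transcripts CC-CA holds above other tissues. Each CC-CA array holds the corpora cardiaca as well as the corpora allata. A higher level there therefore cannot be assigned to the gland that makes juvenile hormone. Of the 30 receptors tested, 2 were called higher in 4th instar CC-CA than in each of the 9 other tissues, BNGR-A2 and BNGR-A6-A. Over all probes tested, 1.56% were called. A call required limma's Benjamini-Hochberg adjusted p below 0.05 and a difference of at least 1 on the log2 scale against every tissue. BNGR-A2 averaged -2.52 ± 0.0028 and BNGR-A6-A averaged -4.01 ± 0.24 in 4th instar CC-CA (SD, n = 2). The smallest difference was 2.30 ± 0.48 (SE) for BNGR-A2, against epidermis (adjusted p = 0.0103). For BNGR-A6-A it was 2.87 ± 0.49 (SE), against ovary (adjusted p = 0.00349), while fat body set the bound of at least 2.02-fold. Both were called on all 4 probes. Neither call held with quantile normalization (largest adjusted p 0.0612 and 0.0506), and BNGR-A6-A was not called under normexp background correction (adjusted p = 0.146) or where dim signals were raised to a floor (adjusted p = 0.201).

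These tests rest on a thin base. Only the pair of CC-CA arrays gave a measure of spread, with 1 residual degree of freedom that limma moderated by a prior worth 7.39, and each single array was taken to vary like that pair. In simulated data this design made more false calls than its threshold allows.

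The 4th instar CC-CA was next set against brain. Of 20 receptors tested, 3 were called higher in CC-CA (BNGR-A1, BNGR-A2 and BNGR-A6-A), against 14.6% of all probes. Another 10 were called lower (BNGR-A3, BNGR-A4, BNGR-A7, BNGR-A8, BNGR-A12, BNGR-A13, BNGR-A17, BNGR-A19, BNGR-A23 and BNGR-A29), against 9.99% of all probes. Of the 20, 9 were tested because they were detected in brain alone, 3 because they were detected in CC-CA alone, and 8 were detected in both, so the filter favours differences and the counts do not describe all 36 receptors. On at least 3 probes, 4 were higher, BNGR-A10 being added, and 6 were lower (BNGR-A3, BNGR-A4, BNGR-A8, BNGR-A13, BNGR-A17 and BNGR-A23).

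BNGR-A1 was 9.19-fold higher in CC-CA, 3.20 ± 0.59 (SE) on the log2 scale (adjusted p = 0.00349). BNGR-A2 was at least 10.3-fold and BNGR-A6-A at least 3.74-fold higher. At the other end BNGR-A8 was at least 27.5-fold lower in CC-CA (adjusted p = 2.8e-05) and BNGR-A13 at least 21.4-fold lower (adjusted p = 0.000170). The neuropeptide F receptor BNGR-A4 was at least 10.1-fold lower (adjusted p = 0.000915), BNGR-A17 was 7.72-fold lower and BNGR-A23 was 5.27-fold lower. BNGR-A16 averaged -5.46 ± 0.48 in CC-CA (SD, n = 2) and -5.45 in brain, a difference of -0.02 with a 95% interval from -1.21 to 1.17. Within slide 1, which held CC-CA replicate 1 and brain, every one of the 13 called receptors kept its direction, with BNGR-A1 at 3.76, BNGR-A8 at -6.53 and the smallest, BNGR-A3, at -1.36. With CC-CA replicate 2 in its place BNGR-A3 differed by -2.73. These arrays also gave the calls, so a kept direction was largely set beforehand and is no separate check on slide.

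**Figure D5:**
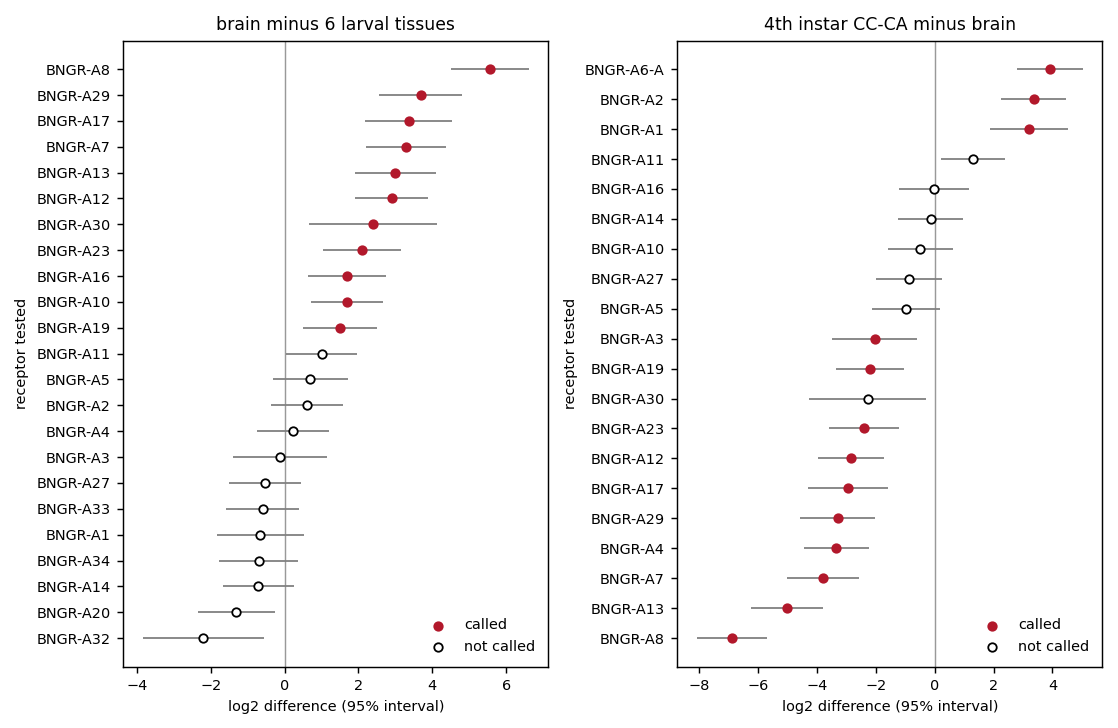
Log2 differences with 95% intervals (horizontal axis) of the receptors tested (vertical axis), for brain minus the mean of 6 larval tissues (left) and 4th instar CC-CA minus brain (right), with filled points for called receptors. BNGR-A8 has the highest value on the left, 5.56, and the lowest on the right, -6.89.

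Brain was also set against the mean of the 6 other larval tissues of the same day (salivary gland, Malpighian tubule, epidermis, midgut, fat body and prothoracic gland). Of 23 receptors tested, 11 were called higher in brain, against 14% of all probes, and 0 lower, against 12.9% of all probes. At an unadjusted p under 0.05, 14 receptors passed and 12 of them were higher. The share of all probes passing unadjusted is not given here, so these counts cannot be set against the array. Of the 23, 14 were detected on both sides, 3 in brain alone and 6 in other tissues alone. Those in brain alone, BNGR-A7, BNGR-A29 and BNGR-A30, were all called, so here too the filter favours differences. On at least 3 probes, 7 were higher (BNGR-A8, BNGR-A10, BNGR-A13, BNGR-A16, BNGR-A17, BNGR-A23 and BNGR-A30).

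BNGR-A8 was at -1.74 in brain and averaged -7.30 over the 6 tissues, at least 17.2-fold higher in brain (adjusted p = 5.6e-05). BNGR-A13 was at least 5.35-fold higher, although Malpighian tubule was above brain. BNGR-A17 was at least 4.82-fold, BNGR-A29 at least 3.54-fold, BNGR-A23 at least 3.18-fold and BNGR-A7 at least 3.08-fold higher. For BNGR-A23, Malpighian tubule (-3.05) lay close to brain (-2.97). BNGR-A10 was 3.23-fold higher (adjusted p = 0.0183), although on its other 3 probes Malpighian tubule and midgut were above brain. BNGR-A12 was at least 2.99-fold higher (adjusted p = 0.00138), although midgut was above brain and brain was well above background on 1 of its 4 probes. The last 3, BNGR-A16, BNGR-A19 and BNGR-A30, were at least 1.17-fold, 1.14-fold and 1.70-fold higher, and were not called once dim signals were raised to a floor (adjusted p between 0.356 and 0.885). For BNGR-A16 prothoracic gland was above brain, and for BNGR-A19 midgut and salivary gland were. Within slide 1, brain exceeded the mean of prothoracic gland and fat body for all 11, from 0.30 (BNGR-A16) to 5.87 (BNGR-A8). The same arrays had entered the calls, so this is no separate check on slide.

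The ligand precursors on the array were looked at beside their receptors. Of 7 (allatostatin_A, NPF1, NPF2, shortNPF, allatotropin, corazonin and Tachykinin), 6 were tested in brain against the 6 tissues and all 6 were called higher. Over all probes 14% were. Among these tissues allatostatin_A, shortNPF, corazonin and Tachykinin were well above background in brain alone, so the filter favours differences. Against brain, 5 of 6 tested were called lower in 4th instar CC-CA, against 9.99% of all probes. Here NPF1, NPF2 and Tachykinin were well above background in brain but not in CC-CA. The shortNPF precursor was at -0.49 and -1.25 in CC-CA and -0.35 in brain. The allatostatin_A precursor was at -3.08 in 5th instar CC-CA, -4.70 and -4.69 in 4th instar CC-CA and 2.90 in brain, whereas its receptor BNGR-A1 was higher in CC-CA. In testis against ovary 2 of 5 tested precursors, shortNPF and corazonin, were called lower, against 8.31% of all probes. Both were well above background in ovary but not in testis. Corazonin was at -1.19 in 5th instar CC-CA and -2.08 and -2.03 in 4th instar CC-CA, against 3.20 in brain. NPF1 was at 0.24 in brain and 2.14 in midgut. Its receptor BNGR-A4 was detected in 9 of the 11 groups, these organs included. BNGR-A4 was highest in fat body, where NPF1 was not well above background. Of the 4 family B receptors, 3 were tested in brain against the 6 tissues and 2 in CC-CA against brain, and none was called by limma (smallest adjusted p = 0.0750). In testis against ovary all 4 were tested, and BNGR-B2 was called higher (5.30 ± 0.62 SE, adjusted p = 0.000334) and BNGR-B1 lower (-2.13 ± 0.56 SE, adjusted p = 0.0273). Over all probes 13% were called higher and 8.31% lower. BNGR-B2 was well above background in testis but not in ovary.

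Testis and ovary, from the same day and slide, differed at 9 of the 19 receptors tested. Testis was higher for 5 (BNGR-A4, BNGR-A6-B, BNGR-A16, BNGR-A23 and BNGR-A25), against 13% of all probes, and lower for 4 (BNGR-A6-A, BNGR-A11, BNGR-A13 and BNGR-A18), against 8.31% of all probes. Of the 19, 9 were detected in both gonads, 6 in testis alone and 4 in ovary alone. The filter therefore favours differences, and the counts do not describe the whole family. Among the receptors called, only BNGR-A4 and BNGR-A13 were detected in both gonads. On at least 3 probes, BNGR-A4 and BNGR-A23 were higher and BNGR-A10 was lower. BNGR-A23 was at least 98.7-fold higher in testis (adjusted p = 4.5e-05). BNGR-A4 was at -4.61 in testis and -6.91 in ovary, a difference of 2.29 ± 0.56 (SE, adjusted p = 0.0191). BNGR-A25 was at least 13.2-fold higher in testis and BNGR-A18 at least 7.38-fold lower, each on the representative probe, and another probe of BNGR-A18 was called higher. BNGR-A13 was at -6.45 in testis and -4.38 in ovary (adjusted p = 0.0467). On 2 of the 4 probes of BNGR-A13 the gonads were close, at -5.45 and -5.44 in testis and -5.21 and -5.56 in ovary. The remaining calls, BNGR-A6-A, BNGR-A6-B, BNGR-A11 and BNGR-A16, had bounds between 1.54-fold and 3.75-fold.

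Between the stages of CC-CA, 0 of the 14 receptors tested were called by limma in 5th instar against 4th instar, where 1.25% of all probes were called higher and 4.49% lower. At an unadjusted p under 0.05, 5 receptors passed, 2 of them higher, with no such share of all probes to set beside them. BNGR-A6-A differed by -2.03 ± 0.49 (SE), just outside the threshold (adjusted p = 0.0506), and 2 of its other probes were called lower. BNGR-A1 differed by -1.83 ± 0.59 (SE, adjusted p = 0.131), with no probe called. BNGR-A11 differed by 1.65 ± 0.48 (SE, adjusted p = 0.0989) and BNGR-A16 by 1.21 ± 0.52 (SE, adjusted p = 0.253), both upward in value.

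BNGR-A10 differed by -1.62 ± 0.48 (SE, adjusted p = 0.105) on its representative, and the other 3 probes were called lower in the 5th instar, by -2.70 to -2.58 (adjusted p between 0.0159 and 0.0191). On those probes the level was between -2.06 and -1.39 in 5th instar CC-CA and averaged 0.64 to 1.24 in 4th instar CC-CA. Over the same stages BmJHAMT differed by -3.79 ± 0.49 (SE, adjusted p = 0.00339), and its part in these receptor values was not tested. BNGR-A2 averaged nearly the same at both stages, with a difference of 0.17 and a 95% interval from -0.93 to 1.27. Within slide 2, which held 4th instar replicate 2 and the 5th instar array, BNGR-A6-A differed by -1.86, BNGR-A10 by -1.66, BNGR-A1 by -1.27 and BNGR-A11 by 1.65.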

How the data were processed

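The deposited scanner files hold spot intensity on a linear scale. Per the file headers, Agilent Feature Extraction (9.5.3.1 in the submitters' processing notes) subtracted background and set dim spots to small positive surrogate values, with no normalization between arrays. Flags for outliers and for spots well above background came from the same files. The deposited value table holds the same intensity divided by 1 constant per array, which no source used here explains.

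From these, log2 of the intensity deposited by the authors was taken and centred per array on its 75th percentile (43803 spots, controls left out). Outlier spots were left out, spots of a probe averaged, and 224 probes lacking a value dropped. limma 3.58.1 in R 4.3.3 fitted 11 group means on the 38086 probes detected in at least 1 group on all its arrays. Probes tested had to be so in a group of the comparison, and p-values were adjusted over all of these. A bound, written "at least N-fold", replaces a dim signal by the lowest signal well above background on that array where that is higher. The steps were tested on simulated data.

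Slides 1, 2 and 3 held 4 arrays each and each slide was 1 scan. Slide could not be fitted as a block, since no residual degree of freedom remained. Normexp was to use mean spot signals, but the median spot intensity in the deposited files was used instead.

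Values by array were given for receptors called in any comparison, those leading the next organ by at least 1 on the log2 scale, and those with a ligand known in the silkworm. Members and lists were chosen with earlier results of these data known. Gene names and order came from RefSeq, and BNGR-A6-A and BNGR-A6-B had no entry. Prothoracicotropic hormone and natalisin were not analysed here. Plots used matplotlib 3.10.9.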

Additional observations from a re-analysis of the deposited data

How the results depend on the processing

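Each setting was changed alone. The median of all probes moved with the scaling: for brain minus 6 tissues it was -0.09, and -0.48 in the deposited value table and 0.20 when scaled over probes detected on all arrays; for testis minus ovary it was -0.31, and -0.96 in the value table. Counts that moved by more than 1.5-fold are listed here, and the other counts under these settings did not. With normexp on the median signal, chosen after seeing the files, 1 receptor was enriched in CC-CA, 7 were higher and 2 lower in brain than in the 6 tissues, 2 were lower in testis than ovary, and 1 was higher and 2 lower in 5th instar CC-CA. With quantile normalization, 0 were enriched, 5 were higher in brain, 6 were lower in CC-CA than brain, and 2 were higher and 0 lower in testis. The value table gave 2 lower in brain. Scaling over detected probes gave 2 lower in testis and 1 lower in 5th instar CC-CA. A floor under dim signals gave 1 enriched, 3 higher in testis and 2 lower in 5th instar CC-CA. Without a filter and with a variance trend, 1 was lower in brain and 2 lower in 5th instar CC-CA in each case. The median over a receptor's probes gave 2 higher and 1 lower in testis and 1 lower in 5th instar CC-CA. Calls on at least 3 probes, also chosen after seeing the files, gave 7 higher in brain, 6 lower in CC-CA than brain, 2 higher and 1 lower in testis, and 1 lower in 5th instar CC-CA. The share of all sequences called on at least 3 probes is not given here. With the median over probes, 2 leads turned negative: BNGR-A25 in testis (-3.56) and BNGR-A32 in midgut (-2.11), since their other probes were dim. The cause of the remaining changes was not tested. Without either 4th instar CC-CA replicate no test is left: BNGR-A2 kept a smallest difference of 2.30 and BNGR-A6-A of 2.70 to 3.04. BNGR-A17 differed between stages by 0.64 without replicate 1 and -0.50 without replicate 2. No paired analysis was possible because the groups compared share fewer than 2 replicate numbers. Low signal limits most negative statements: where a probe is not well above background, only a bound is known.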
